A study of Sus scrofa with 30 samples.

Results

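The 35 genes described here are those of cytosolic tRNA charging and of the amino acid stress response in the pig embryo. They were taken by gene symbol from a list, and all 35 had a row among the 13103 genes of the table of all embryos. The list holds 20 genes for cytosolic aminoacyl-tRNA synthetases, 6 for enzymes of serine, asparagine and mitochondrial folate metabolism, 5 for transcription factors of the stress response, 3 for effectors of that response, and XPOT, the exportin that carries tRNA out of the nucleus. The choice used no measured value, but it was made with earlier results of these data known.

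Whole porcine embryos, embryonic disc and trophectoderm together, were collected from pregnant German Landrace × Pietrain gilts inseminated with semen of a single Pietrain boar. Each library holds the mRNA of 1 embryo, and there were 30 libraries, 5 of female and 5 of male embryos at Day 8, at Day 10 and at Day 12 after insemination, so all groups share sire and breed and differ in day and sex. The cycles of all gilts were synchronized with hormones (altrenogest, PMSG and human chorionic gonadotropin) before insemination, and the embryos themselves were not treated. Different gilts were slaughtered on each day, so differences between days cannot be told apart from differences between sets of gilts. The 10 embryos of a day came from at most 4 gilts, so some were littermates, and a male and a female were taken from the same gilt at each stage. Which gilt an embryo came from is not given, so litter entered no test, and the p-values treat the embryos as independent. Total counts per embryo ran from 6068212, in the Day 12 female embryo d12_f_245, to 34002508.

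Aminoacyl-tRNA synthetases join each amino acid to its tRNA and so feed the ribosome. When a tRNA lacks its amino acid, the kinase GCN2 phosphorylates the initiation factor eIF2. General translation then falls, while the mRNA of ATF4 is translated more. ATF4 is a transcription factor whose known targets include most cytosolic synthetase genes, ASNS, the serine synthesis genes PHGDH, PSAT1 and PSPH, the mitochondrial folate enzymes SHMT2 and MTHFD2, and the stress genes DDIT3, TRIB3, CHAC1 and SESN2. Control of ATF4 lies largely in translation, which mRNA counts do not measure. Between Days 8 and 12 the pig conceptus changes from a small sphere to a long filament.

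Levels are CPM, counts scaled to the size of the library with edgeR's TMM factors, given as the lowest, the median and the highest of the 10 embryos of a day. Changes are log2 fold changes of the later over the earlier day, with their SE and the adjusted p of edgeR's quasi-likelihood F test, corrected over all genes with the Benjamini-Hochberg method. A gene passed the test at an adjusted p under 0.001 and was a differentially expressed gene (DEG) if the log2 fold change was also beyond 1. In whole embryos, fewer cells of a type and less RNA per cell cannot be told apart. The marker genes of the cell types moved with the day. The summed level of 8 trophectoderm markers had medians of 24569, 44606 and 14014 CPM on Days 8, 10 and 12, that of 5 measured epiblast markers 160, 128.9 and 43.8 CPM, and that of 6 hypoblast markers 297.2, 177 and 464 CPM. The trophectoderm sum came mostly from KRT8 and KRT18, and the markers of a list did not all move as its sum did. From Day 10 to Day 12, 1 of the 8 trophectoderm markers passed and was higher, and 4 passed and were lower. From Day 8 to Day 12, 4 of the 6 hypoblast markers passed and were higher, and 1 was lower. NANOG, SOX2 and PRDM14 were at or under the floor of 3 counts in all Day 12 embryos. Of the maternal blood list, 2 of 7 genes were measured, with summed medians of 0.684, 2.81 and 4.11 CPM and HBB at the floor in all Day 8 embryos. Of the maternal endometrium list, 4 of 7 genes were measured, with summed medians of 308, 807 and 3741 CPM, mostly from UPTI. The part of these shifts in the results below was not tested.

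From Day 8 to Day 10, 7 of the 20 cytosolic synthetase genes fell and none rose. The 7 genes were AARS, DARS, EPRS, NARS, RARS, VARS and YARS, which were lower by 0.48 to 0.77 on the log2 scale. The other 13 did not pass, and the median over the 20 genes was -0.35 against 0.03 over all genes. Over the 35 genes, 7 were lower and 2 were higher at this threshold, where 14.8% of all genes tested were lower and 16.6% were higher. The 2 higher genes, ASNS and PHGDH, were also DEG, and no member was a DEG that fell, beside 9.88% and 4.20% of all genes in these directions. At an unadjusted p under 0.05, 15 synthetases were lower and 1 was higher. The share of all genes at that p was not counted for the days, so such counts have no background here. In 8 of the 20 genes every Day 10 embryo lay below every Day 8 embryo, and how many of all genes did so was not counted.

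RARS, the arginyl-tRNA synthetase gene, had the lowest fold change of the group. It was counted at 254, 264 and 287 CPM on Day 8, at 102, 170 and 192 CPM on Day 10, and at 104, 140 and 176 CPM on Day 12. The Day 8 and Day 10 embryos did not overlap, and the change was -0.77 ± 0.10 (SE, n = 10 embryos per day, adjusted p = 1.11e-07, edgeR). EPRS encodes the synthetase for both glutamic acid and proline. Its levels were 301, 362 and 424 CPM on Day 8 and 153, 231 and 291 CPM on Day 10, without overlap, a change of -0.74 ± 0.12. On Day 12 it was counted at 147, 241 and 270 CPM, overlapping with Day 10. NARS, the asparaginyl-tRNA synthetase gene, went from 688, 723 and 788 CPM to 349, 491 and 618 CPM, again without overlap, with a change of -0.63 ± 0.11. All 3 calls were kept in each of 30 fits that left out 1 embryo, as were those of AARS, VARS and YARS, while DARS passed in 14 of the 30. Of the 7 genes, RARS passed in females alone, and RARS, DARS, EPRS and NARS in males alone.

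At the other end, 3 synthetases had the highest fold changes and did not pass. CARS, for cysteine, had 42.7, 44.9 and 49.0 CPM on Day 8 and 42.6, 57.0 and 62.1 CPM on Day 10, a change of 0.27 ± 0.14. QARS, for glutamine, had 181, 185 and 212 CPM and then 173, 210 and 256 CPM, a change of 0.14 ± 0.07. KARS, for lysine, had 477, 521 and 550 CPM and then 458, 530 and 634 CPM, a change of 0.04 ± 0.07. The days overlapped in all 3 genes.

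From Day 10 to Day 12 fewer synthetases changed. AARS, DARS and TARS passed and were lower, none was higher, and 17 did not pass. At an unadjusted p under 0.05, 7 were lower and 0 were higher, again without a count over all genes. The median was -0.05 against 0.04 over all genes. Over the 35 genes, 6 were lower and 0 higher at this threshold, where 16.6% of all genes were lower and 21.4% higher. MTHFD2 was the only member DEG of this interval and fell, beside 8.39% of all genes that were DEG in that direction and 14.9% in the other. With library size alone as scaling, the median of all genes was 0.24 and that of the synthetases 0.14, with 8 of the 20 estimates below 0 in place of 13.

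TARS, the threonyl-tRNA synthetase gene, passed in this interval and not in the earlier one, though the difference between its steps was not tested. Its levels were 290, 337 and 366 CPM on Day 8, 275.7, 339 and 402 CPM on Day 10, and 113, 195 and 216 CPM on Day 12. Every Day 12 embryo lay below every earlier one, and the change from Day 10 was -0.88 ± 0.09 (adjusted p = 1.44e-09, edgeR) after 0.03 ± 0.09 before. AARS, the alanyl-tRNA synthetase gene on chromosome 6 (13298336 to 13321423, Sscrofa11.1), fell in both intervals. It had 508, 601 and 757 CPM on Day 8, 270.6, 394 and 525 CPM on Day 10, and 169, 233 and 264 CPM on Day 12, with steps of -0.59 ± 0.10 and -0.83 ± 0.10. DARS, for aspartic acid, had 184, 205 and 220 CPM, then 113, 140 and 168 CPM, then 52.7, 111.2 and 120 CPM. It was lower in both intervals, by 0.52 and by 0.56 on the log2 scale. The second call of DARS was lost with library size alone as scaling (-0.37, adjusted p = 0.0205, edgeR), with only these 2 days in the fit, and in each sex alone. The synthetases with the highest fold changes of this interval were VARS at 0.16 ± 0.11, LARS at 0.14 ± 0.16 and WARS at 0.13 ± 0.09, for valine, leucine and tryptophan, and none of them passed.

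VARS had 278, 296 and 364 CPM on Day 8, 137, 233 and 282 CPM on Day 10 and 205, 254 and 290 CPM on Day 12, so its lowest values were those of Day 10. LARS had 146, 168 and 222 CPM, then 131, 158 and 217 CPM, then 71.0, 190 and 259 CPM, and its median was highest on Day 12 while its range widened. WARS had 83.5, 99.3 and 113 CPM, then 69.0, 83.9 and 97.6 CPM, then 72.1, 89.97 and 123 CPM.

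**Figure D1:**
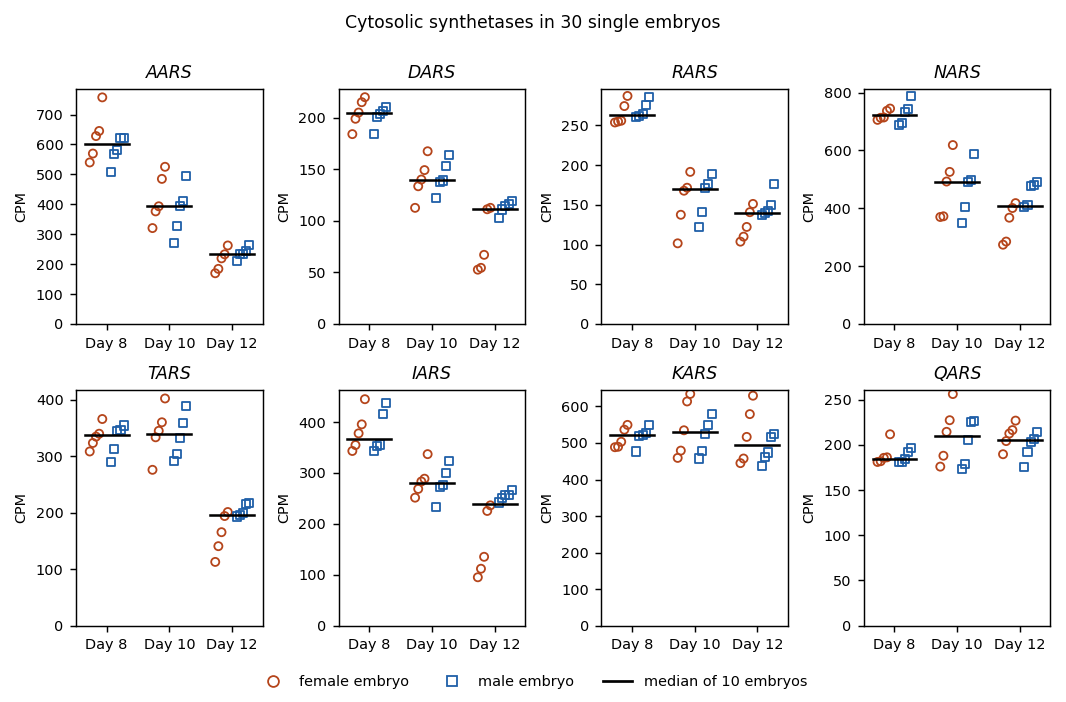
CPM (linear axis from 0) of 8 cytosolic synthetase genes in each of the 30 embryos by day, circles for females, squares for males, black lines for the median of 10 embryos. AARS stepped down from a median of 601 to 394 and 233 CPM, TARS was lower on Day 12, KARS and QARS overlapped on all days, and on Day 12 the 3 lowest points of DARS and IARS belong to female embryos.

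Over the whole interval from Day 8 to Day 12, 11 of the 20 synthetases were lower, 0 were higher and 9 did not pass. At an unadjusted p under 0.05, 14 were lower and 0 higher, without a count over all genes at that p. This comparison shares its embryos with the other two. The median was -0.46 against 0.09 over all genes. AARS at -1.42 ± 0.11 (adjusted p = 3.21e-13) and DARS at -1.08 ± 0.13 (adjusted p = 6.16e-09) were DEG by edgeR. Over the 35 genes, 14 were lower and 4 higher, where 24.5% of all genes were lower and 30.3% higher. Of the 8 member DEG, 4 were higher and 4 lower, beside 22.0% and 10.4% of all genes. The mean level was highest on Day 8 in 15 of the 20 synthetases and lowest on Day 12 in 12. Together the 20 genes took 0.524% to 0.586% of an embryo's counts on Day 8, 0.315% to 0.478% on Day 10 and 0.298% to 0.432% on Day 12, so the Day 8 embryos did not overlap with the later ones.

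**Figure D2:**
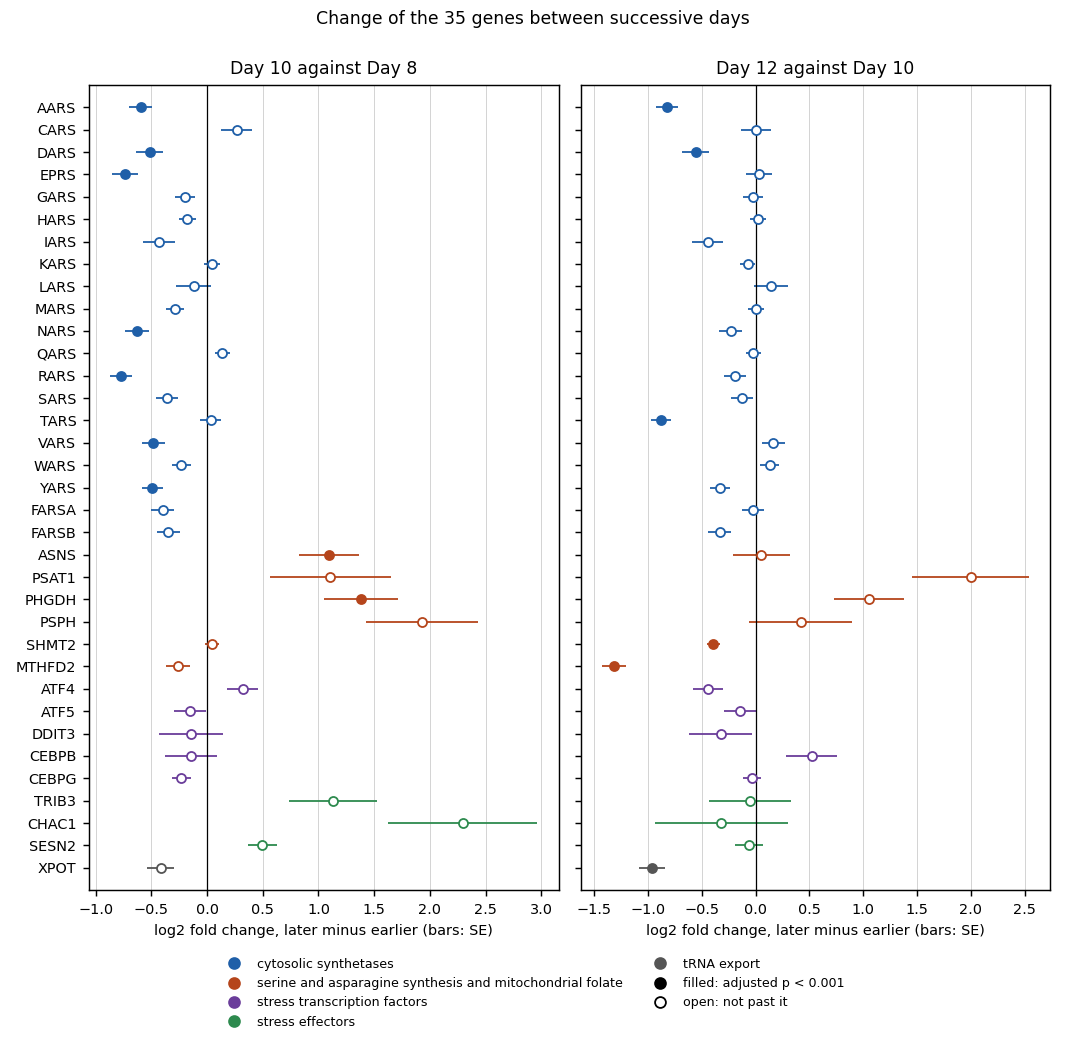
Log2 fold change (later over earlier day, horizontal axis, each panel with its own scale) and SE of the 35 genes between successive days, coloured by group, filled where the adjusted p was under 0.001. Filled synthetases lie left of 0 in both panels, 7 on the left and 3 on the right, while ASNS and PHGDH are the filled points to the right of 0.

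Mitochondria load their tRNA with a second set of synthetases, encoded by other nuclear genes. A cytosolic and a mitochondrial gene were paired for 15 amino acids. EPRS was paired with EARS2, for glutamic acid, so PARS2, for proline, was measured but entered no pair. From Day 8 to Day 12 the estimates of both were below 0 in 13 pairs and above 0 in 1, and in 6 pairs both genes passed and were lower. Of the 16 mitochondrial synthetases measured, 11 were lower and 1 was higher over this interval. From Day 8 to Day 10, 5 of them were lower and 0 higher, and from Day 10 to Day 12, 6 were lower and 1 higher. Of all genes, 24.5% were lower and 30.3% higher over the whole interval. These shares were 14.8% and 16.6% from Day 8 to Day 10, and 16.6% and 21.4% from Day 10 to Day 12. The pair with both genes above 0 was that of cysteine, in which CARS changed by 0.27 ± 0.14 and CARS2 by 0.85 with an adjusted p of 1.22e-07 (edgeR). In the leucine pair, LARS changed by 0.02 and LARS2 by -0.60. GARS and KARS serve both compartments and have no separate mitochondrial gene. Of the 3 scaffold genes that hold the large synthetase complex together, AIMP1 and EEF1E1 were lower on Day 10 than on Day 8, and on Day 12 EEF1E1 was a DEG at -1.29 against Day 8.

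**Figure D3:**
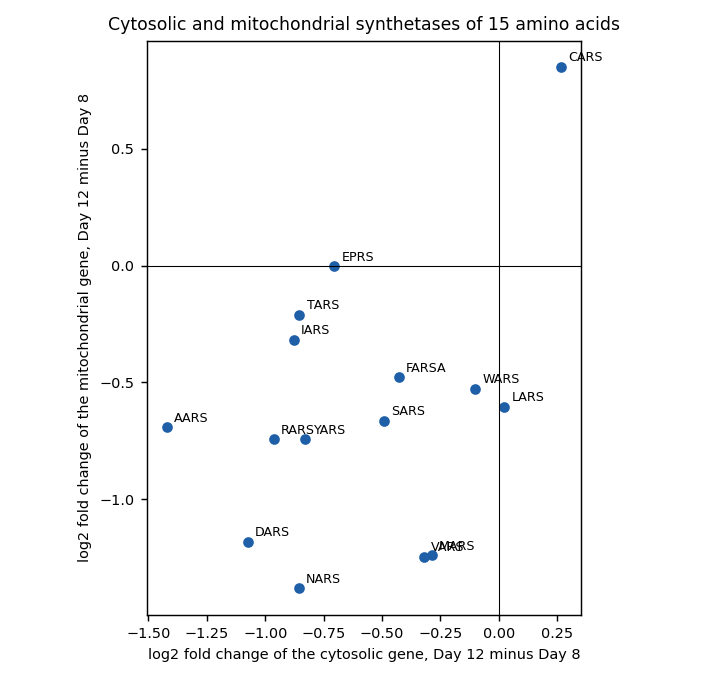
Log2 fold change from Day 8 to Day 12 of the cytosolic gene (horizontal axis, points named by it) and of the mitochondrial gene (vertical axis) for 15 amino acids. Of the points, 13 lie below 0 on both axes, CARS lies above 0 on both, and LARS lies just right of 0 with a mitochondrial partner at -0.60.

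XPOT, the tRNA exportin, moved in the direction of the synthetases and lies on chromosome 5 (28678971 to 28875336, Sscrofa11.1). Its levels were 374, 392 and 432.5 CPM on Day 8, 230, 291 and 388 CPM on Day 10, and 95.3, 159 and 213 CPM on Day 12. All Day 12 embryos lay below all others. The first step was -0.42 ± 0.12 and did not pass (adjusted p = 0.00409), the second was -0.96 ± 0.12 (adjusted p = 4.25e-08), and over the whole interval XPOT was a DEG at -1.38 ± 0.12 by edgeR.

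The genes of serine and asparagine synthesis went the other way. ASNS, PHGDH, PSAT1 and PSPH were all DEG and higher on Day 12 than on Day 8, by 1.15 to 3.11 on the log2 scale. In males alone the estimates of the 4 genes were 0.88, 2.30, 2.86 and 1.78 in the order ASNS, PHGDH, PSAT1 and PSPH, and none passed, while in females alone ASNS did not pass (adjusted p = 0.0181, edgeR) and the other 3 did. The 2 mitochondrial folate genes of the list, SHMT2 and MTHFD2, were lower. PHGDH, the enzyme of the first step from glycolysis into serine, lies on chromosome 4 (101445977 to 101478144, Sscrofa11.1). It had 0.594, 2.17 and 6.61 CPM on Day 8, 4.40, 5.96 and 11.09 CPM on Day 10, and 9.52, 12.3 and 32.1 CPM on Day 12. Neighbouring days overlapped, but every Day 12 embryo lay above every Day 8 embryo. The first step was 1.38 ± 0.33 (adjusted p = 8.18e-04, edgeR), the second 1.06 ± 0.32 (adjusted p = 0.00584), and the whole change 2.44 ± 0.34.

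PSAT1, which makes phosphoserine from the product of PHGDH, had 1.35, 2.06 and 22.2 CPM on Day 8, 3.21, 5.43 and 39.4 CPM on Day 10, and 9.83, 33.8 and 115 CPM on Day 12. On Day 8 the highest value, in the male embryo d08_m_103, stood far above the next of 5.02 CPM. The steps were 1.11 ± 0.54 and 1.998 ± 0.54, neither past the test (adjusted p = 0.0824 and 0.00216), and the whole change was 3.11 ± 0.57 (adjusted p = 1.53e-05, edgeR). Without the Day 8 male embryo d08_m_103 the first step was 1.99 (adjusted p = 9.89e-04, edgeR). Without the Day 10 male embryo d10_m_435 the second was 2.59 (adjusted p = 8.50e-05, edgeR). The second step passed also without d08_m_103, which is of neither of its days but is part of the same fit. Single embryos thus decided these 2 calls.

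PSPH, the phosphatase of the last step to serine, had 1.37, 2.48 and 14.8 CPM on Day 8, 3.22, 6.34 and 38.4 CPM on Day 10, and 7.05, 14.2 and 53.1 CPM on Day 12. The days overlapped, and the highest Day 8 value was again that of embryo d08_m_103. The first step was 1.93 ± 0.50 (adjusted p = 0.00162, edgeR), or 2.54 (adjusted p = 4.27e-05) without that embryo. This step passed also without the Day 10 male embryo d10_m_333. The second step was 0.42 ± 0.48.

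ASNS, the asparagine synthetase, had 15.6, 18.4 and 25.4 CPM on Day 8, 21.0, 37.6 and 75.7 CPM on Day 10, and 20.3, 34.0 and 137 CPM on Day 12. It rose in the first interval, by 1.10 ± 0.27 (adjusted p = 9.55e-04, edgeR), and differed by 0.05 ± 0.27 in the second. The first call sat at the threshold and was kept in 7 of the 30 fits that left out 1 embryo, where that of PHGDH was kept in 14. With library size alone as scaling, or in embryos of one sex alone, neither gene passed in this interval. PHGDH also did not pass with only these 2 days in the fit. Over the whole interval the change of ASNS was 1.15 ± 0.27, and 0.75 without the Day 12 female embryo d12_f_271, which did not pass.

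**Figure D4:**
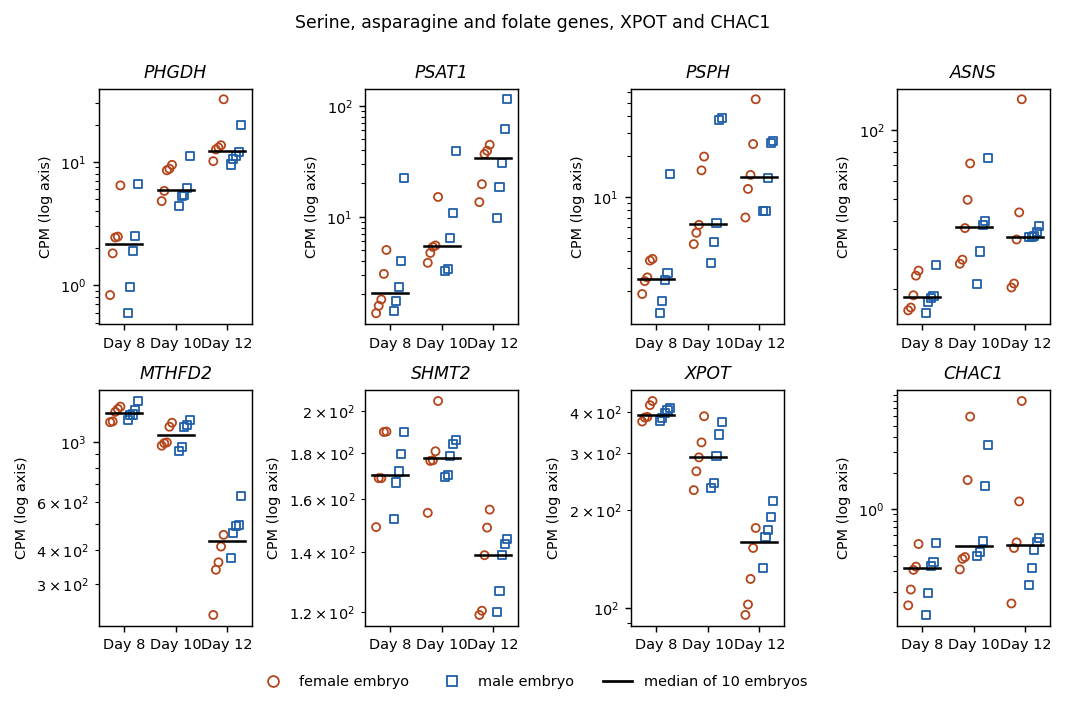
CPM (log axis, range set per gene) of 8 genes in each embryo by day, circles for females, squares for males, black lines for the median of 10 embryos. PHGDH, PSAT1 and PSPH climb from medians of 2.17, 2.06 and 2.48 CPM to 12.3, 33.8 and 14.2 CPM, MTHFD2 and XPOT drop on Day 12, and CHAC1 has a few high embryos on Days 10 and 12.

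MTHFD2, a mitochondrial folate enzyme whose product supplies formate for purine synthesis, lies on chromosome 3 (68819171 to 68833641, Sscrofa11.1). Its levels were 1182, 1274 and 1413 CPM on Day 8, 929, 1064 and 1207 CPM on Day 10, and 232, 434.8 and 632 CPM on Day 12. The first step was -0.26 ± 0.11 and did not pass. The second was -1.32 ± 0.11 (adjusted p = 7.63e-12, edgeR), with no overlap between the days. SHMT2, which splits serine in mitochondria and lies upstream of MTHFD2, had 149, 170 and 190 CPM, then 155, 178 and 205 CPM, then 119, 139 and 156 CPM. It was lower on Day 12 than on Day 10 by 0.39 on the log2 scale (adjusted p = 4.49e-06, edgeR) with the groups just overlapping. The call was lost with library size alone as scaling, at -0.20, and in females alone, at -0.46, and that over the whole interval in each sex alone. Of 8 other measured genes of serine, glycine and folate metabolism, 1 was higher and 2 lower on Day 10 than on Day 8. On Day 12 against Day 10, 1 was higher and 5 lower. Of all genes, 16.6% were higher and 14.8% lower in the first interval, and 21.4% and 16.6% in the second. MTHFD1L, the next mitochondrial enzyme after MTHFD2, was lower by 1.74 and by 2.43 on the log2 scale in the 2 intervals, and GLDC of the glycine cleavage system by 3.37 in the second. Of the cytosolic genes, SHMT1 was higher by 1.22 in the first interval and ALDH1L1 by 1.66 in the second.

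None of the 5 stress transcription factors passed edgeR's quasi-likelihood test in any comparison of days. By edgeR's robust GLM, a likelihood ratio test that weighs outlying embryos down, ATF4 was lower on Day 12 than on Day 10 (-0.62), and DDIT3 (-0.95) and CEBPG (-0.32) were lower on Day 12 than on Day 8. The quasi-likelihood test in males alone called ATF4 at -0.73 and DDIT3 at -1.33 in the same comparisons, and DESeq2 called none of the 5. With library size alone CEBPG was also lower on Day 10 than on Day 8, at -0.41. At an unadjusted p under 0.05 ATF4 was higher and CEBPG lower on Day 10, 1 gene was lower and 1 higher on Day 12 against Day 10, and 2 were lower on Day 12 against Day 8. The share of all genes at that p was not counted. ATF4 had 204, 239 and 285.95 CPM on Day 8, 244.9, 307.2 and 371 CPM on Day 10, and 149, 192 and 382 CPM on Day 12. Its changes were 0.32 ± 0.14 (adjusted p = 0.0510) and -0.45 ± 0.14 (adjusted p = 0.00708) by edgeR. ATF5, a related factor also controlled in translation, had medians of 31.5, 28.7 and 21.2 CPM within ranges of 25.8 to 34.8, 19.7 to 39.8 and 16.1 to 40.1 CPM, and changes of -0.15 ± 0.15 in each interval. DDIT3, known as CHOP, had 1.60, 3.23 and 4.497 CPM, then 1.60, 2.76 and 4.47 CPM, then 1.01, 1.53 and 7.38 CPM, and changes of -0.15 ± 0.29 and -0.33 ± 0.29. CEBPB ran at 2.29, 3.52 and 3.96 CPM, then 1.71, 2.50 and 6.29 CPM, then 2.29, 3.89 and 7.09 CPM, and changed by -0.14 ± 0.23 and 0.52 ± 0.24. CEBPG, a partner of ATF4, had 37.4, 41.1 and 48.3 CPM, then 31.2, 34.9 and 41.9 CPM, then 28.8, 33.1 and 52.1 CPM, with changes of -0.23 ± 0.09 and -0.03 ± 0.09. In all 5 genes the days overlapped.

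The 3 effectors had estimates above 0 from Day 8 to Day 10, and none passed the quasi-likelihood test in any comparison of days. CHAC1 passed in this interval by the robust GLM at 1.53, by DESeq2 at 2.31 and with only these 2 days in the fit at 2.30. SESN2 passed by DESeq2 at 0.50, and by the robust GLM on Day 12 against Day 8 at 0.45. TRIB3, a pseudokinase that binds ATF4, had 0.156, 0.659 and 1.67 CPM on Day 8, 0.819, 1.38 and 3.47 CPM on Day 10, and 0.434, 1.13 and 5.70 CPM on Day 12, with a first step of 1.13 ± 0.39 (adjusted p = 0.0153). CHAC1, which degrades glutathione, had 0.129, 0.319 and 0.516 CPM, then 0.312, 0.486 and 5.95 CPM, then 0.161, 0.498 and 8.04 CPM. The fitted first step was 2.30 ± 0.67 (adjusted p = 0.00434), and 4 of 10 Day 10 embryos were above 1 CPM. CHAC1 was at the floor of 3 counts or fewer in 2 Day 8 embryos and 1 Day 12 embryo. SESN2, the leucine sensor upstream of mTORC1, had 45.9, 58.3 and 74.6 CPM, then 62.8, 75.3 and 133.3 CPM, then 49.3, 82.4 and 106 CPM, with steps of 0.50 ± 0.13 (adjusted p = 0.00174) and -0.06 ± 0.13. At an unadjusted p under 0.05, 3 of the 3 effectors were higher on Day 10 than on Day 8 and 3 on Day 12 than on Day 8, and 0 differed between Days 10 and 12. No share of all genes was counted at that p.

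Of 22 other measured genes known as targets of ATF4, 5 were higher and 0 lower on Day 10 than on Day 8. Of all genes, 16.6% were higher and 14.8% lower in this interval. On Day 12 against Day 10, 10 of the 22 were higher and 2 were lower, beside 21.4% and 16.6% of all genes. In the first interval the largest DEG were JDP2 at 2.97, GPT2 at 2.97, ALDH1L2 at 2.84 and the amino acid transporter SLC1A4 at 1.96. In the second they were ALDH1L2 at -5.95, SLC38A2 at 3.56, SLC7A11 at 3.08 and DDIT4 at 2.26. SLC38A2 takes up neutral amino acids and SLC7A11 cystine. ALDH1L2, a mitochondrial folate enzyme like MTHFD2, was thus higher on Day 10 and lower on Day 12. Beside the same shares of all genes, 16 genes for the eIF2 kinases, eIF2, eIF2B and the eIF2 phosphatases were counted. In the first interval 2 of these 16 were higher and 5 lower, and in the second 2 were higher and 4 lower. The DEG among them were PPP1R15A, which directs the removal of phosphate from eIF2, at 1.41 in the first interval, and EIF2AK2, the kinase that responds to double-stranded RNA, at 1.26 in the second. EIF2AK4, which is GCN2, changed by 0.26 and by -0.65 and did not pass.

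The median SD of log2 CPM within a day over the 20 synthetases was 0.113, 0.217 and 0.228 on Days 8, 10 and 12. That over all genes was 0.227, 0.286 and 0.453. On Day 12, LARS at 0.584, IARS at 0.564, CARS at 0.486 and DARS at 0.476 lay above the median of all genes. Genes matched to the synthetases in level were not compared. Over the 6 serine, asparagine and folate genes the median SD was 0.583, 0.534 and 0.640. On Day 8 the highest synthetase value was 1.13 to 1.53 times the lowest, and on Day 12 it was 1.29 to 3.64 times the lowest, the latter in LARS. The Day 8 female embryo d08_f_105 was the highest of its day in 11 of the 20 synthetases and the Day 10 female embryo d10_f_433 in 9. Such counts were not made over all genes. On Day 10, 4 embryos, the females d10_f_336 and d10_f_454 and the males d10_m_333 and d10_m_453, had the lowest sums over the 20 genes, of 3538 to 3783 CPM. ASNS of the same embryos ranged from 21.0 to 75.7 CPM, with d10_f_454 and d10_m_453 the highest of the day.

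On Day 12 the female embryos d12_f_245, d12_f_271 and d12_f_289 stood apart within the gene set, which was seen after their values were known. They were the 3 lowest of the day in DARS at 52.7, 54.4 and 67.1 CPM, where the next embryo had 102.9 CPM. They were the 3 lowest also in IARS, EPRS, LARS, RARS, TARS and XPOT, and the 3 highest in ATF4, DDIT3 and CEBPB. In how many of all genes they were the 3 lowest or the 3 highest was not counted, so this may not be particular to the set. The Day 12 female embryo d12_f_271 was the highest of its day in 9 of the 20 synthetases and 9 of the other 15 genes, among them ASNS at 137 CPM and CHAC1 at 8.04 CPM. Its share of highest values over all genes was not counted. Over all genes, the median distance of d12_f_245 and d12_f_271 to the other embryos of the day was 1.20 and 1.04 on the log2 scale, where that of the others was 0.716 to 0.887. The summed level of the 8 trophectoderm markers was 19373, 27261 and 15238 CPM in d12_f_245, d12_f_271 and d12_f_289 and 9303 to 19459 CPM in the other 7 Day 12 embryos. These sums came mostly from KRT8 and KRT18. The 3 embryos were the highest in 2 of the 8 markers, CDX2 and GATA3, and overlapped with the others in 6. They overlapped with the others also in all 5 epiblast, 6 hypoblast, 2 maternal blood and 4 endometrium markers. The part of cell composition and depth in these values was not tested.

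Without these 3 embryos, 10 genes were lower on Day 12 than on Day 10 in place of 6, and 0 were higher. The 6 genes kept their calls, and ATF4 at -0.76 (adjusted p = 4.60e-08), DDIT3 at -1.11 (adjusted p = 4.11e-05), YARS and CARS joined them. From Day 8 to Day 12, 17 were lower and 4 higher, in place of 14 and 4. Since the embryos were left out for their values in these genes, these adjusted p-values of edgeR are smaller than an independent choice would give.

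**Figure D5:**
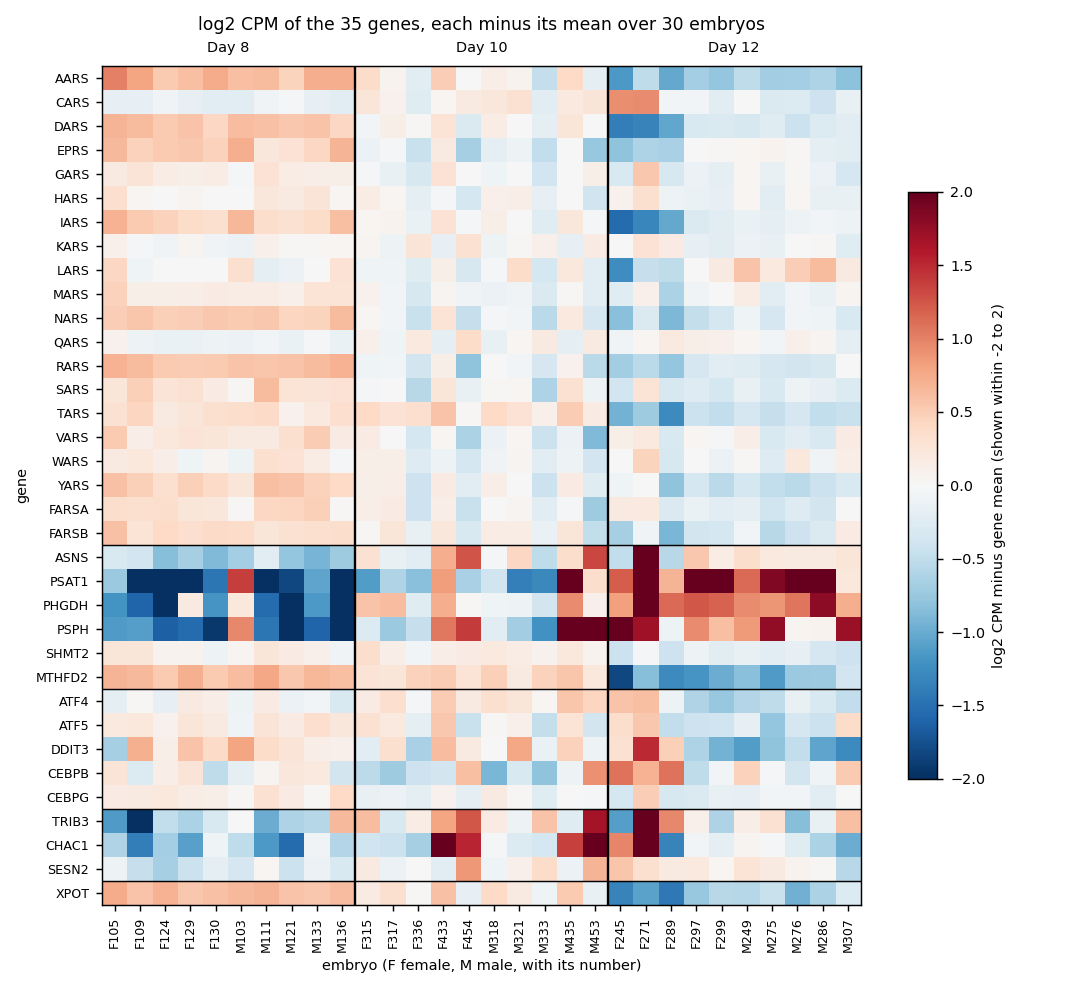
Log2 CPM of the 35 genes (rows) in the 30 embryos (columns, F female, M male), each gene minus its mean over all embryos, in colours limited to the range from -2 to 2. Most synthetases are above their mean on Day 8, PSAT1 and PSPH below it except in M103, and F245, F271 and F289 on Day 12 show DARS and IARS below and DDIT3 and CEBPB above their means.

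Female and male embryos were compared within each day. Of the genes of the set, 33, 35 and 34 were in the tables of Days 8, 10 and 12, and 0 were called on any day by edgeR at an adjusted p under 0.05, nor by DESeq2, where 0.658%, 0.223% and 0.123% of all genes were called. At an unadjusted p under 0.05 there were 0, 0 and 5 of the set, against 4.59%, 2.36% and 22.7% of all genes. The 5 genes of Day 12 were CARS and DDIT3, higher in females, and IARS, LARS and NARS, lower in females, with a lowest adjusted p of 0.198. IARS was at 170 ± 66.3 CPM in 5 females and 265 ± 6.08 CPM in 5 males (SD), and no female reached the lowest male. Embryos d12_f_245, d12_f_271 and d12_f_289 lie among these females. Without them the lowest adjusted p of the set was 0.9995 by edgeR, with 2 females against 5 males. These embryos were singled out for their values in genes of the set, IARS, LARS and DDIT3 among them. Leaving them out lowers the difference by construction and leaves few females. This fit therefore cannot decide whether the sexes differ in these genes. A fit of all 6 groups of day and sex called 6 of the 35 genes on Day 12, CARS, DARS, IARS, LARS, MTHFD2 and DDIT3, beside 20.3% of all genes in the same fit, and 0 on Days 8 and 10, beside 0.275% and 0.214%. In the test of whether the change between days differed by sex, 0 genes of the set and 0% of all genes were called by edgeR in either interval, and 0 of the set by DESeq2. At an unadjusted p under 0.05, 0 and 8 genes of the set were found, of 100 and 2473 in all.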

How the data were processed

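The authors prepared stranded mRNA libraries of single embryos, sequenced them as single-end reads, trimmed the reads (Trim Galore), aligned them in Galaxy to the Sscrofa11.1 assembly, annotated by NCBI, and dropped genes of low CPM. The aligner, the counter and its strand setting are not given in the sources used here. The authors deposited unnormalized read counts per NCBI gene identifier, in 1 table of 13103 genes for all 30 embryos and 1 table per day.

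Symbols were matched to identifiers in the RefSeq gene table of Sscrofa11.1, where all 13103 identifiers were found. Days were compared in 1 fit of 3 groups (10 embryos each), sexes within the table of their day (5 against 5) and the interaction in 1 fit of 6 groups. Tests used R 4.3.3 and edgeR 4.0.16 (quasi-likelihood F test with robust dispersion and TMM factors), with limma 3.58.1 and, as an alternative, DESeq2 1.42.0. SEs were derived from F, as the absolute log2 change divided by its root. Summaries and plots used Python 3.11.15, pandas 2.3.3 and matplotlib 3.10.9. Log2 levels used a prior count of 2. The floor was 3 counts, 0.434 CPM in the smallest library, and covers counting error only. The tests were tried on simulated data first.

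The members and lists were chosen with earlier results of these data known. A gene of the list of other serine and folate enzymes is not reported here. Values are given one by one for all members outside the synthetases, for synthetase DEG, for the 3 synthetases with the highest and the 3 with the lowest fold change of each interval, and for up to 4 DEG with the largest change of each other list. Other embryos and genes singled out were chosen after their values were seen. The alternatives were the robust GLM, DESeq2, RLE factors, library size alone, 2 filters on low counts, a term for sex, fits of 2 days only, fits of females or males only, glmTreat at a log2 threshold of 1, each embryo left out, and, added after the data were seen, 3 Day 12 female embryos left out. Of the 35 genes, 7 overlap another counted gene in the annotation (MARS, TARS, SHMT2, MTHFD2, ATF5, DDIT3 and XPOT, with MARS and DDIT3 overlapping each other), and reads of a shared stretch, or of near-identical copies, could have been split. Levels of different genes were not compared, since transcript lengths were not used here. Promoter sequences were not analysed here.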

Additional observations from a re-analysis of the deposited data

Results flagged for a closer look

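Each of the 35 genes was examined on each of the 3 days. In 17 of these sets of 10 embryos the highest embryo lay apart from the next by more than Dixon's criterion at 95% allows. The criterion was applied to CPM at both ends, and every flag was for a highest embryo. About 5.25 flags over both ends would come by chance if CPM were normally distributed, which was not checked. The flags are therefore a description and not a measure of excess over chance. The genes of the set are not independent of each other, and 11 of the 17 were on Day 12.

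The Day 12 female embryo d12_f_271 accounted for 9 of them. It had 137 CPM of ASNS where the next embryo had 43.5, 32.1 CPM of PHGDH where the next had 19.8, 8.04 CPM of CHAC1 where the next had 1.16, 5.70 CPM of TRIB3 where the next had 2.10, and 7.38 CPM of DDIT3 where the next had 3.61. It also had 52.1 CPM of CEBPG, 264 CPM of GARS, 101 CPM of HARS and 151 CPM of SARS, where the next embryos had 37.0, 185, 86.4 and 115 CPM. In the same embryo 8 of 22 other ATF4 targets and 1 of 14 genes of the endoplasmic reticulum list were the highest of the day. The share over all genes was not counted, and a cause was not tested.

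The Day 8 male embryo d08_m_103 had 22.2 CPM of PSAT1 and 14.8 CPM of PSPH, where the next embryos had 5.02 and 3.48 CPM. The Day 8 female embryo d08_f_105 had 185 CPM of MARS, 212 CPM of QARS and 236 CPM of FARSB, where the next had 163, 196 and 207 CPM. PSAT1 was at 39.4 CPM in the Day 10 male embryo d10_m_435 and at 115 CPM in the Day 12 male embryo d12_m_276, where the next had 15.1 and 61.8 CPM. PSPH was at 53.1 CPM in the Day 12 female embryo d12_f_245, where the next had 26.0 CPM.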

How the results depend on the processing

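RLE factors, the 2 filters on low counts and sex as a term left the counts of members called between days within 1.5 times, and no called member changed sign under any alternative. From Day 8 to Day 10 the robust GLM and DESeq2 each gave 4 DEG that rose (5 at the adjusted p alone), library size alone 0 and 0 with 17 lower, 2 days in the fit 12 lower, females alone 0 and 0 with 1 lower, males alone 0 and 0 with 4 lower, and the test against a log2 fold change of 1 gave 0. With library size alone, the DEG over all genes of this interval were 1027 higher and 811 lower, in place of 1295 and 550, and the median of all genes was -0.15. From Day 10 to Day 12 the robust GLM gave 1 DEG that rose (2 at the adjusted p alone), DESeq2 and 2 days in the fit 1 and 1, females alone 1 and 1 with 4 DEG lower, and the test against a log2 fold change of 1 gave 0 lower. From Day 8 to Day 12 females alone gave 8 DEG lower, males alone 0 higher by both rules, and the test against a log2 fold change of 1 gave 2 higher and 2 lower. The fit of 6 groups called 6 members between sexes on Day 12. Without the Day 12 female embryos d12_f_245, d12_f_271 and d12_f_289, 4 members rose and 11 fell from Day 8 to Day 10 at the adjusted p alone, and 2 DEG and 10 at the adjusted p alone fell from Day 10 to Day 12. Fewer embryos enter the fits of 1 sex, and for the other settings the cause was not tested. Leaving out 1 embryo gave 0 to 3 DEG higher, 0 to 3 higher and 6 to 8 lower at the adjusted p alone from Day 8 to Day 10. It gave 0 to 1 DEG higher, 1 to 2 lower, and 0 to 1 higher and 6 to 8 lower at the adjusted p alone from Day 10 to Day 12, and 3 to 4, 4 to 5, 3 to 5 and 13 to 17 over the whole interval. CHAC1 changed by -1.70 from Day 10 to Day 12 without embryo d12_f_271 (-0.32 with it) and by 0.59 from Day 8 to Day 12 (1.98 with it), and without embryo d08_m_103 PSAT1 and PSPH changed by 3.99 and 2.96 over the whole interval. Of 792 values of members that did not pass, 39 changed sign, 1 of them past the threshold (CARS, -0.31 from Day 10 to Day 12 without the 3 embryos), and 53 passed in the same direction. The spread within days was little changed by prior counts of 0.5 and 5. No paired analysis was possible because the replicate numbers are embryo numbers that no 2 groups share. The description of promoter motifs was not run. Genes near the floor (CHAC1 and TRIB3) are limited by depth.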

Other observations

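The chaperones of the endoplasmic reticulum and the unfolded protein response, which share DDIT3 and ATF4 with amino acid stress, moved otherwise than the synthetases. Of 14 genes, 2 were lower on Day 10 than on Day 8, where XBP1, the spliced factor of the response, was a DEG at -1.04 ± 0.10. On Day 12 against Day 10, 11 were higher and 0 lower by edgeR, 7 of them DEG. Of all genes, 21.4% were higher, 16.6% lower and 14.9% DEG that rose in this interval. The largest DEG of the list were CRELD2 at 1.76 ± 0.17, MANF at 1.57 ± 0.17, SDF2L1 at 1.38 ± 0.22 and HYOU1 at 1.36 ± 0.17. The mean of HSPA5, the main chaperone known as BiP, was 1497, 985 and 2515 CPM on Days 8, 10 and 12. Of 6 mitochondrial chaperones and proteases, 1 was lower in the first interval, 3 were lower in the second and 0 were higher. Of all genes, 14.8% were lower in the first interval and 16.6% in the second. HSPD1, HSPE1 and HSPA9 were lower in the second interval by 0.62, 0.50 and 0.67 on the log2 scale.

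Of 13 measured genes for the sensing of amino acids upstream of mTORC1, 4 were higher and 2 lower on Day 10 than on Day 8. On Day 12 against Day 10, 1 was higher and 4 were lower. Of all genes, 16.6% were higher and 14.8% lower in the first interval, and 21.4% and 16.6% in the second. The DEG of this list in the second interval were CASTOR1, the arginine sensor, at 1.74 ± 0.21, and the Rag GTPases RRAGC at -1.28 ± 0.08 and RRAGD at -1.79 ± 0.28.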
